A study of Homo sapiens with 15 samples.

Results

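The genes described here are 10 members of the YAP/TAZ-TEAD arm of the Hippo pathway, chosen by gene symbol: the transcriptional cofactors YAP1 and WWTR1 (TAZ), the DNA-binding factors TEAD1 and TEAD4, and the target genes THBS1, AXL, AMOTL2, LATS2, CCN1 and CCN2. All 10 were found by symbol among the 12995 genes of both deposited tables, one of the cell lines and one of the YBX1 knockdown. RNA was measured by 3′ end sequencing in 15 libraries, 3 from each of 5 groups, all labelled with a time of 3 days. OKF6 is a normal oral epithelial line with a wild type genotype, grown in serum-free keratinocyte medium. SCC15 and SCC25 are oral squamous carcinoma lines that had been transduced with lentiviral Cas9 and guide RNAs against YBX1 and sorted as pools of cells positive for both GFP and mCherry, so that no group is a single clone. In SCC15 +YBX1 and SCC25 +YBX1 no doxycycline was given and the labels call the genotype wild type. In SCC15 -YBX1 and SCC25 -YBX1 doxycycline at 1 µg/ml induced the editing, and the labels call the genotype YBX1 knockout. SCC25 was grown in the same medium as OKF6, whereas SCC15 was grown in DMEM with serum, so that line and medium cannot be told apart in any comparison with SCC15. In the same way, loss of YBX1 cannot be told apart from exposure to doxycycline. No source says that replicates came from separate cultures, so the p-values measure the spread between these libraries, which may be technical.

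In the Hippo pathway the kinases MST1 and MST2 activate LATS1 and LATS2, which phosphorylate YAP and TAZ and so keep these cofactors in the cytoplasm. Where the kinases are inactive, YAP and TAZ enter the nucleus and bind TEAD factors, which carry no strong activity of their own, at sites with the core GGAATG. In squamous epithelium the pathway is known for its part in basal cell growth and in carcinoma. Among the targets, CCN1 and CCN2 are secreted matricellular proteins, THBS1 is a matrix glycoprotein, AXL is a receptor tyrosine kinase for GAS6, and AMOTL2 and LATS2 feed back on the cofactors. RNA levels report neither the phosphorylation nor the location of YAP and TAZ.

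Promoter sequence was taken from RefSeq for GRCh38.p14, as windows from 250 bases before to 50 bases after an annotated start. Windows were matched by symbol for 7 of the 10 genes, 10 windows in all: YAP1, WWTR1, THBS1, AXL, AMOTL2, LATS2 and CCN2. TEAD1, TEAD4 and CCN1 are not among them. The TEAD core GGAATG, read on both strands, was present in 6 of these 10 windows, against 14.0% of the 35116 windows of all genes. These windows belong to 6 of the 7 genes, and the share by gene was not computed over all genes. The AP-1 motif TGANTCA, whose outer letters TG and CA can also be those of a TEAD core, was in 0 of the 10 windows and in 7.71% of all windows. Several of these genes are known TEAD targets, so the shares are a description of the chosen genes, and a match in letters is not a bound site. The 250 bases before the start are shown for the 3 targets whose upstream match lies nearest to the start or is repeated, and a shorter stretch for the other matches upstream of a start. Capitals mark the TEAD core on either strand.
CCN2, chr6:131951373-131951622, minus strand: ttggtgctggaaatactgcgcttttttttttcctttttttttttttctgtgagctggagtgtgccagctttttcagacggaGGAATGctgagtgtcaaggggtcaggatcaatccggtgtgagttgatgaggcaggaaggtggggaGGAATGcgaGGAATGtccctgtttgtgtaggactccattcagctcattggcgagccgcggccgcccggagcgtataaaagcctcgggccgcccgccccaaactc
THBS1, chr15:39580829-39581078, plus strand: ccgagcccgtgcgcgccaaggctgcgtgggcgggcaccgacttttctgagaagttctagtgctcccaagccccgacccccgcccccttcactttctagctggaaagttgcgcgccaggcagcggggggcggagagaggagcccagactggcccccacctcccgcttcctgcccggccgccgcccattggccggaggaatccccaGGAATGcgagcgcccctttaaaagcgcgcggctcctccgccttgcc
AMOTL2, chr3:134374448-134374697, minus strand: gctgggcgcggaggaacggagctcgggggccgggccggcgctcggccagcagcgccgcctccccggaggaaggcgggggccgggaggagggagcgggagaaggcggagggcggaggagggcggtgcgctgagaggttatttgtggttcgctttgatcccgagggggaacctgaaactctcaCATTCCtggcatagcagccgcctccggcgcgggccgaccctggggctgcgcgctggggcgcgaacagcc
YAP1, chr11:102110265-102110310, plus strand: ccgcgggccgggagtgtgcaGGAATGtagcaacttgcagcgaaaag
AXL, chr19:41226523-41226568, plus strand: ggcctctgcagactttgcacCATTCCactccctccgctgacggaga
CCN2 held 3 copies, which began 169, 104 and 95 bases before its start. The single copy lay 46 bases before the start of THBS1, 69 bases before one of the AMOTL2 starts, 162 bases before that of YAP1 and 212 bases before the more downstream of the AXL starts. In LATS2 the copy lay 10 bases after the start and is not shown.

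Values are given as log2 CPM, CPM being the reads of a gene scaled to a fixed library size, after 0.5 was added to each count. Counted reads lay between 4075290 and 6118501 per library, and 1 read was worth 0.138 to 0.226 CPM. The lines carried the markers of their labels unequally. The 8 keratinocyte markers tested had a summed level of 14.49 to 14.87 log2 CPM in OKF6 and of 12.80 to 14.42 in SCC25, but of 6.43 to 6.92 in the SCC15 libraries, where TP63 had 1 read in the 3 +YBX1 libraries together and 2 in the 3 -YBX1 libraries. All 8 were lower in SCC15 +YBX1 than in SCC25 +YBX1 at an adjusted p under 0.05, beside 23.6% of all genes. The 3 mesenchymal markers measured (VIM, CDH2 and COL1A1) had a summed level of 6.84 to 7.15 in OKF6, 8.42 to 8.66 in SCC15 and 8.67 to 10.26 in SCC25. CDH2 (N-cadherin) was at 0 reads in all OKF6 libraries. In limma it was higher in SCC15 +YBX1 than in SCC25 +YBX1 (log2 difference 2.05, adjusted p = 0.00277). VIM (-1.38, adjusted p = 0.000353) and COL1A1 (-1.57, adjusted p = 0.0284) were lower in that comparison, so the sum hides opposite directions. The part of these marker differences in the results below was not tested. OKF6 replicate 1 lay farthest from the other libraries of its group. The distance was 0.885 log2 units over genes above the median level, against 0.263 to 0.713 elsewhere. The OKF6 comparisons that depend on that library are named.

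The first question the design asks is how the lines differ without knockdown. Of the 10 genes, 8 were lower in SCC15 +YBX1 than in SCC25 +YBX1 at an adjusted p under 0.05, against 23.6% of all genes tested, and 0 were higher, against 20% of all genes. The exceptions were TEAD4 and LATS2. The median log2 difference of the 10 genes was -2.34, beside -0.01 over all genes. Against OKF6, SCC15 was lower for 8 genes (23.4% of all genes) and higher for TEAD4 (26.9% of all genes), 9 in all, or 6 in a fit of these 2 groups alone. SCC25 and OKF6 differed for fewer of them: TEAD4 and CCN2 were higher in SCC25 (18.9% of all genes) and YAP1 was lower (11.3% of all genes). Leaving out 1 library at a time gave 7 to 8 called genes for SCC15 against SCC25, 6 to 8 for SCC15 against OKF6 and 0 to 5 for SCC25 against OKF6, where 0 came without SCC25 +YBX1 replicate 3 and 5 without OKF6 replicate 1. With library medians set equal the split over all genes between SCC15 and SCC25 turned from 2602 higher and 3070 lower to 3045 and 2685, while 8 of the 10 genes were again lower and 0 higher. Taking both arms of each line, every one of the 6 SCC15 libraries lay below every one of the 6 SCC25 libraries for 9 of the 10 genes, the exception being TEAD4. This was so for 25.5% of all genes, and the opposite order held for 23% of all genes and for 0 of these 10. In bulk RNA, fewer expressing cells and less RNA per cell cannot be told apart.

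**Figure D1:**
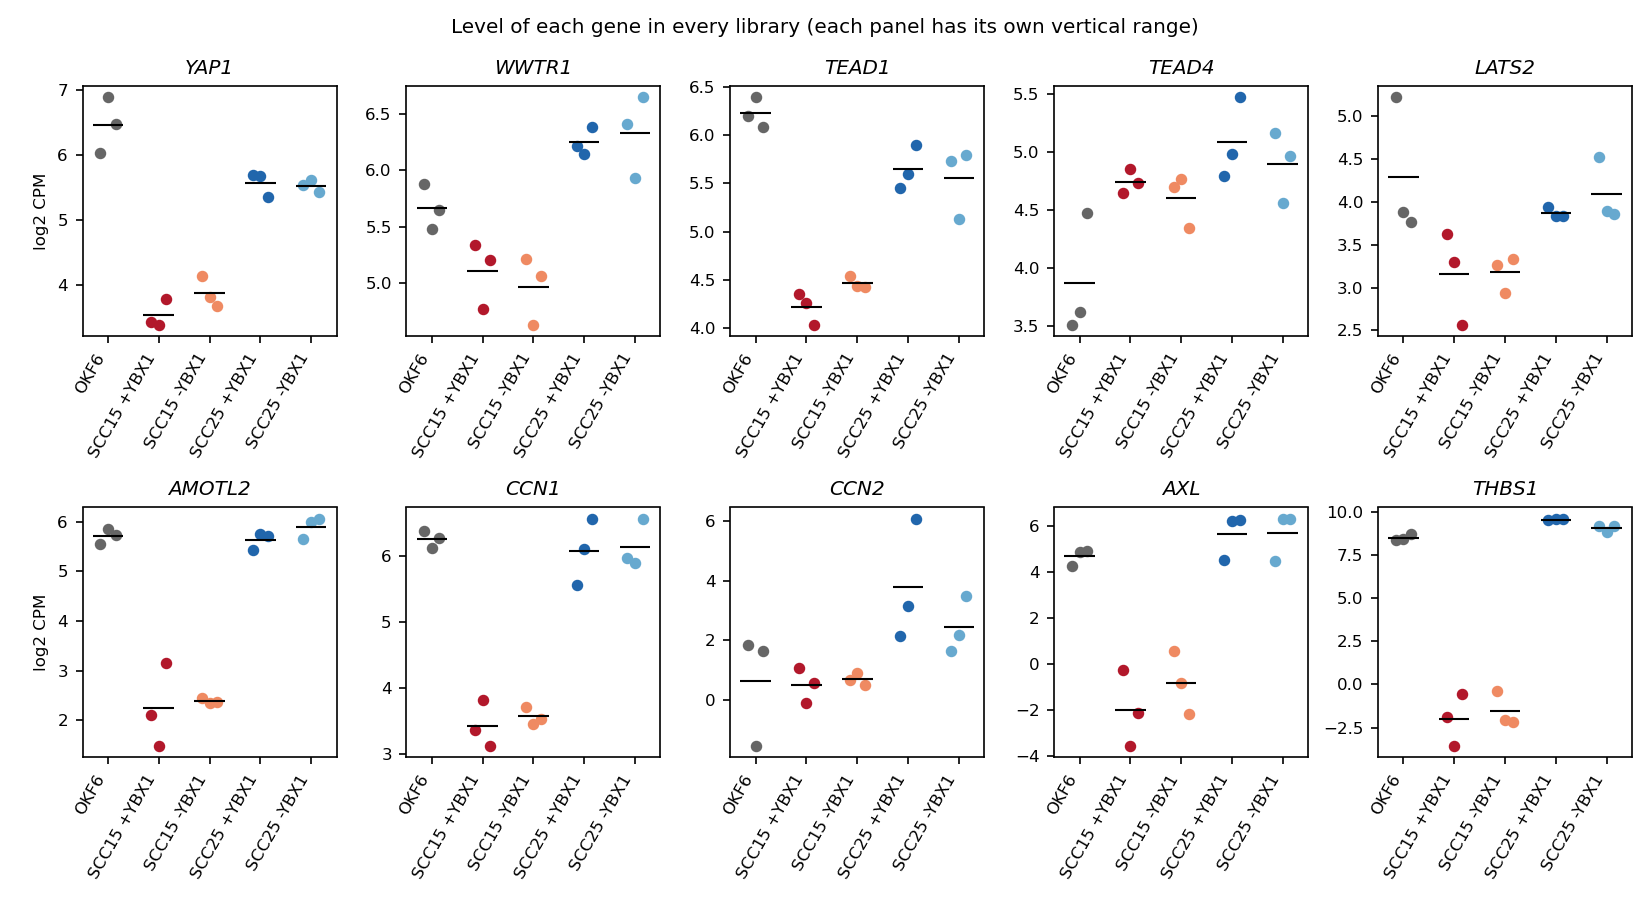
Log2 CPM of each of the 10 genes in the 15 libraries, 1 panel per gene with its own vertical range. Points are libraries in the order of replicates 1 to 3 and bars are group means (n = 3); except for TEAD4, the 6 SCC15 libraries (red and orange) lie below the 6 SCC25 libraries (blue), and AXL and CCN2 are the genes whose SCC25 libraries spread most.

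The cofactor YAP1 (chr11:102110447-102233424) stood at 6.03, 6.89 and 6.49 log2 CPM in OKF6, at 5.70, 5.69 and 5.36 in SCC25 +YBX1 and at 3.44, 3.40 and 3.78 in SCC15 +YBX1. These 3 groups did not overlap, with the order OKF6, SCC25, SCC15. SCC15 was 4.12-fold lower than SCC25 (log2 difference -2.04, SE 0.26, adjusted p = 8.44e-05) and 7.63-fold lower than OKF6 (-2.93, SE 0.26, adjusted p = 4.36e-06). The smaller difference between SCC25 and OKF6 (-0.89, SE 0.26, adjusted p = 0.0243) lost its call when any one of OKF6 replicates 2 and 3 or of the SCC25 +YBX1 replicates was left out, with adjusted p between 0.0560 and 0.0963.

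WWTR1 (chr3:149517235-149736714), which encodes TAZ, the partner cofactor of YAP, followed another order. Its levels were 6.21, 6.15 and 6.38 log2 CPM in SCC25 +YBX1, 5.88, 5.48 and 5.65 in OKF6 and 5.34, 4.78 and 5.21 in SCC15 +YBX1. Again no groups overlapped, but SCC25 and not OKF6 was highest. SCC15 was 2.20-fold lower than SCC25 (log2 difference -1.14, SE 0.21, adjusted p = 0.00134). The difference of SCC15 from OKF6 was called narrowly (-0.56, SE 0.21, adjusted p = 0.0476) and was lost when any one of OKF6 replicates 1 and 3 or SCC15 +YBX1 replicates 2 and 3 was left out (adjusted p between 0.0776 and 0.177). It passed under 3 of 14 alternatives, and not with library medians set equal (-0.40, adjusted p = 0.150) or under quantile normalization (-0.40, adjusted p = 0.148). SCC25 against OKF6 gave 0.58 (SE 0.21, adjusted p = 0.0621), which did not pass. It passed under 1 of 14 alternatives, the fit without OKF6 replicate 1 (adjusted p = 0.0245).

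The 2 TEAD genes behaved unlike each other. TEAD1 (chr11:12674421-12944737) had levels of 6.195, 6.392 and 6.088 log2 CPM in OKF6, 5.45, 5.60 and 5.90 in SCC25 +YBX1 and 4.36, 4.26 and 4.04 in SCC15 +YBX1. Its order was that of YAP1, with no overlap between groups, and of all pairs among the 10 genes YAP1 and TEAD1 were closest to each other over the 15 libraries (0.464 log2 units after centring). SCC15 was 2.70-fold lower than SCC25 (log2 difference -1.43, SE 0.21, adjusted p = 0.000237) and 4.02-fold lower than OKF6 (-2.01, SE 0.21, adjusted p = 1.47e-05). SCC25 against OKF6 gave -0.58 (SE 0.21, adjusted p = 0.0576), which did not pass. It passed under 2 of 14 alternatives, quantile normalization (-0.67, adjusted p = 0.0451) and the fit without OKF6 replicate 1.

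TEAD4 (chr12:2959330-3040676), the other TEAD factor, was the gene of the set that was higher in both cancer lines than in OKF6. It had 3.51, 3.62 and 4.47 log2 CPM in OKF6, 4.65, 4.85 and 4.73 in SCC15 +YBX1 and 4.79, 4.98 and 5.47 in SCC25 +YBX1. The cancer lines overlapped each other, and OKF6 lay below both. SCC25 was 2.32-fold higher than OKF6 (log2 difference 1.22, SE 0.31, adjusted p = 0.0130), a call lost without SCC25 +YBX1 replicate 3 (adjusted p = 0.0651). SCC15 was 1.84-fold higher than OKF6 (0.88, SE 0.31, adjusted p = 0.0348), a call lost without any one of OKF6 replicates 1 and 2 or any one of the SCC15 +YBX1 replicates (adjusted p between 0.0623 and 0.101). SCC15 against SCC25 gave -0.34 (SE 0.31, adjusted p = 0.402). The highest OKF6 value belonged to replicate 3, and without it no call was lost.

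**Figure D2:**
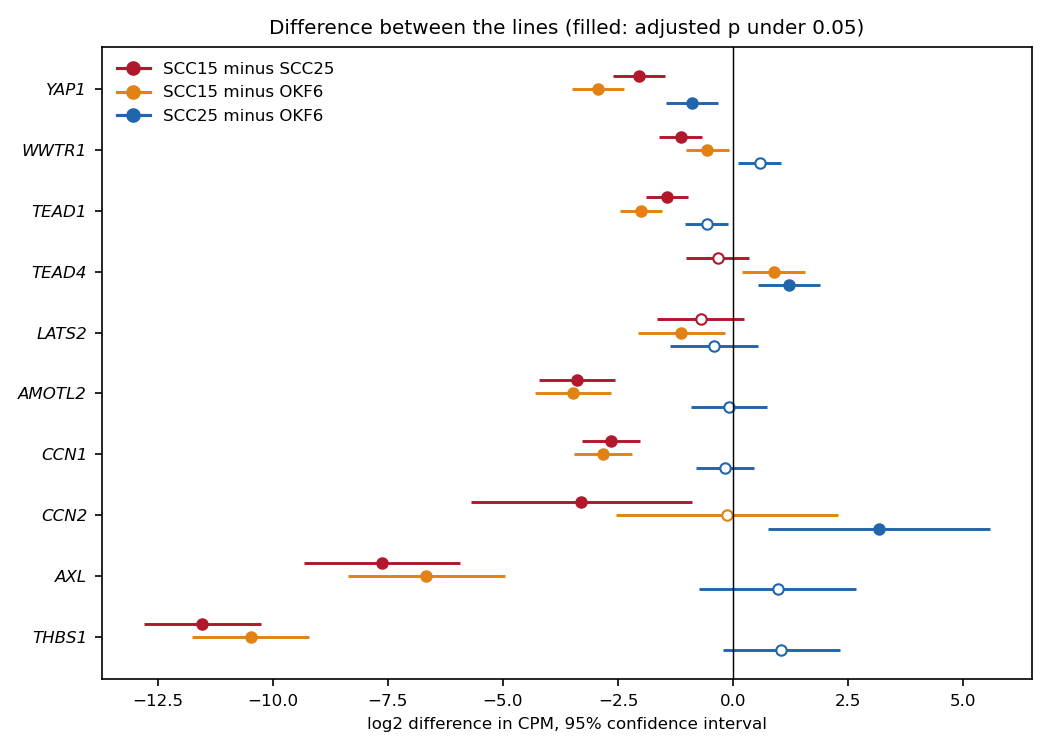
Log2 difference in CPM of each gene between the lines without knockdown, with the 95% confidence interval from limma (3 libraries per group). Filled points have an adjusted p under 0.05; THBS1 and AXL lie farthest to the left in both comparisons with SCC15, whereas the SCC25 minus OKF6 points lie between -0.89 and 3.16.

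Of the feedback genes, AMOTL2 (chr3:134355347-134375479), an angiomotin-like scaffold that binds YAP, had 5.42, 5.75 and 5.71 log2 CPM in SCC25 +YBX1 and 5.54, 5.85 and 5.74 in OKF6, which overlapped. In SCC15 +YBX1 it had 2.10, 1.48 and 3.15, from 23, 16 and 57 reads. SCC15 was 10.5-fold lower than SCC25 (log2 difference -3.39, SE 0.37, adjusted p = 3.31e-05) and 11.1-fold lower than OKF6 (-3.47, SE 0.37, adjusted p = 2.05e-05). The ribosomal protein pseudogene RPL39P5 lies on the same strand within the last 500 transcribed bases of AMOTL2 and was not analysed here.

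LATS2 (chr13:20973036-21061586), the kinase that inhibits YAP and TAZ and is itself their target, was at 3.94, 3.84 and 3.83 log2 CPM in SCC25 +YBX1 and at 3.62, 3.30 and 2.57 in SCC15 +YBX1. The difference of -0.71 (SE 0.43, adjusted p = 0.211) did not pass, although the libraries did not overlap. OKF6 had 5.22, 3.88 and 3.76, with replicate 1 standing above the others. SCC15 was lower than OKF6 by a narrow call (-1.13, SE 0.43, adjusted p = 0.0492). Without OKF6 replicate 1 it gave -0.66 (adjusted p = 0.139), and it was lost too without SCC15 +YBX1 replicate 2 (adjusted p = 0.0886) or replicate 3 (adjusted p = 0.178). It passed under 7 of 14 alternatives, and not with library medians set equal (adjusted p = 0.0941), under quantile normalization (adjusted p = 0.0754) or in the fit of these 2 groups alone (adjusted p = 0.104).

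The secreted targets CCN1 and CCN2 differed in how they varied. CCN1 (CYR61, chr1:85580761-85584589) had 5.56, 6.11 and 6.57 log2 CPM in SCC25 +YBX1, 6.38, 6.12 and 6.29 in OKF6 and 3.36, 3.82 and 3.12 in SCC15 +YBX1. SCC25 and OKF6 overlapped and SCC15 lay below both, 6.26-fold lower than SCC25 (log2 difference -2.65, SE 0.28, adjusted p = 2.67e-05) and 7.10-fold lower than OKF6 (-2.83, SE 0.28, adjusted p = 1.22e-05). CCN2 (CTGF, chr6:131948176-131951372) had few reads outside SCC25: 18, 1 and 18 in OKF6 and 11, 5 and 9 in SCC15 +YBX1, against 23, 45 and 326 in SCC25 +YBX1. In log2 CPM the SCC25 libraries stood at 2.14, 3.16 and 6.09, the OKF6 libraries at 1.83, -1.56 and 1.64 and the SCC15 libraries at 1.07, -0.11 and 0.55.

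CCN2 was 9.82-fold lower in SCC15 than in SCC25 (log2 difference -3.30, SE 1.09, adjusted p = 0.0308), and the difference of SCC15 from OKF6 did not pass (-0.13, SE 1.09, adjusted p = 0.931). In pooled CPM SCC25 held 18.6-fold more than SCC15 (12.4 to 29.05). Without SCC25 +YBX1 replicate 3 the log2 difference from SCC25 was -2.15 (adjusted p = 0.127), and without replicate 1 it was -4.12 (adjusted p = 0.0202). Its call against SCC25 was lost when any library of either group other than SCC25 +YBX1 replicate 1 was left out (adjusted p between 0.0537 and 0.127). SCC25 was higher than OKF6 (3.16, SE 1.09, adjusted p = 0.0495), and this call was lost without any one of OKF6 replicates 2 and 3 or SCC25 +YBX1 replicates 2 and 3 (adjusted p between 0.0520 and 0.186). It passed under 4 of 13 alternatives, and the difference was 2.02 without SCC25 +YBX1 replicate 3. The long non-coding gene LINC01013 lies on the opposite strand over the last 500 transcribed bases of CCN2, and the strand setting of the counting is not given in the sources used here. LINC01013 was not analysed here.

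The surface receptor AXL and the matrix protein THBS1 were at a few reads in SCC15. AXL (chr19:41219223-41261766) had 119, 367 and 363 reads in SCC25 +YBX1 and 98, 129 and 178 in OKF6, but 4, 0 and 1 in SCC15 +YBX1. In CPM over the pooled libraries SCC25 held 200-fold more than SCC15 (95% interval 85.4 to 618, exact and covering counting error only) and OKF6 held 93.1-fold more (39.6 to 288). The limma log2 difference was -7.63 (SE 0.77, adjusted p = 1.65e-05) from SCC25 and -6.66 (SE 0.77, adjusted p = 3.43e-05) from OKF6. SCC25 and OKF6 overlapped, at 4.49, 6.18 and 6.24 log2 CPM against 4.24, 4.87 and 4.91.

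THBS1 (chr15:39581079-39599466) showed the largest difference of the 10 genes between SCC15 and SCC25. It had 3832, 3801 and 3677 reads in SCC25 +YBX1 and 1720, 1503 and 2475 in OKF6, against 1, 0 and 4 in SCC15 +YBX1. Only 3 of the 12995 genes, THBS1 included, had a log2 difference between SCC15 and SCC25 as low or lower than its -11.53 (SE 0.57, adjusted p = 1.78e-07). In pooled CPM SCC25 held 2665-fold more than SCC15 (1142 to 8210) and OKF6 held 1310-fold more (561 to 4036). The levels of SCC25, at 9.49, 9.55 and 9.58 log2 CPM, lay above those of OKF6, at 8.36, 8.41 and 8.71, but the difference of 1.05 (SE 0.57, adjusted p = 0.191) did not pass. In the fit of these 2 groups alone, without SCC15, the adjusted p was 0.00754, and with voom weights it was 0.00613, the 2 of 14 alternatives under which it passed. Among the SCC15 +YBX1 libraries the keratin gene KRT6A had the replicate order of THBS1. KRT6A was at 2.03, -3.57 and 3.54 log2 CPM in replicates 1, 2 and 3. THBS1 was at -1.87, -3.57 and -0.53 there, from only 1, 0 and 4 reads. The keratinocyte markers KRT5, KRT14 and CDH1 shared this order. TP63 had 1 read in these libraries together, in replicate 3. Its values in replicates 1 and 2, -3.46 and -3.57, are those of 0 reads and differ by library size only. EPCAM (0.24, 0.82 and -0.24), DSP (6.79, 6.44 and 6.35) and PKP1 (-3.46, -1.98 and 0.0014) did not. In SCC15 -YBX1 KRT6A was at 2.52, 1.32 and 0.78 and THBS1 at -0.40, -2.05 and -2.16, from 7 reads together. There KRT5, EPCAM and PKP1 also fell from replicate 1 to replicate 3. KRT14 (0.90, 1.22 and -0.57), CDH1 (1.00, -2.05 and -0.57), TP63 (-3.86, -2.05 and -2.16) and DSP (6.14, 6.34 and 6.44) did not. The part of this trace of keratin RNA in the THBS1 reads was not tested. FSIP1, on the opposite strand over the end of THBS1, had 34 reads in SCC25 +YBX1 and 22 in SCC15 +YBX1.

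The rest of the pathway was taken from lists of known members. Of the 17 other YAP/TAZ targets listed, 16 were measured. In SCC15 against SCC25, 13 of these were lower, beside 23.6% of all genes, and 0 were higher, beside 20% of all genes. The remaining 3 were past no threshold, and the median log2 difference was -3.33 (all genes, -0.01). Equal library medians and quantile normalization each gave 12 lower and 0 higher. For tissue factor, F3, the reads were 20463 in SCC25 +YBX1 and 23 in SCC15 +YBX1, a CPM ratio of 1050 (698 to 1650). NT5E, the ecto-nucleotidase CD73, had 1932 and 4 (ratio 569, 222 to 2090), and MYOF, a membrane repair protein, had 563 and 2 (ratio 332, 91.4 to 2750). The targets that did not pass were FOXF2 (1.02, adjusted p = 0.192), GADD45A (0.05, adjusted p = 0.889) and RBMS3 (0.66, adjusted p = 0.686). Against OKF6, 11 of the 16 were lower in SCC15 (23.4% of all genes) and 1 higher (26.9% of all genes). The median was -3.10 (all genes 0.10). Equal library medians gave 11 lower and 2 higher in SCC15, and quantile normalization 13 lower and 2 higher. SCC25 was higher than OKF6 for 5 (18.9% of all genes) and lower for 3 (11.3% of all genes). The median was 0.37 (all genes 0.13). ANKRD1 was not analysed here.

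Of 5 other TEAD factors and cofactors, 3 were lower in SCC15 than in SCC25, beside 23.6% of all genes. None was higher, beside 20% of all genes (median -1.19). TEAD3 differed by -1.67 (adjusted p = 0.0243) and TEAD2 by -1.19 (adjusted p = 0.00945), while the TEAD cofactor VGLL1, at 8 reads in SCC25 +YBX1 and 1 in SCC15 +YBX1, gave a ratio of 9.43 (1.26 to 418). VGLL3 (-0.60, adjusted p = 0.247) and VGLL4 (0.20, adjusted p = 0.615) did not pass. TEAD2 was higher than in OKF6 in both SCC25 (2.26, adjusted p = 0.000429) and SCC15 (1.07, adjusted p = 0.0143), the direction also seen for TEAD4.

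Of the upstream genes, 25 Hippo kinases and scaffolds were listed and 23 measured. In SCC15 against SCC25, 9 were lower, beside 23.6% of all genes, 3 were higher, beside 20% of all genes, and 11 did not pass (median -0.82). With library medians set equal or under quantile normalization 8 were lower and 3 higher. The core kinase genes STK3 (-1.13, adjusted p = 0.0620) and STK4 (-0.05, adjusted p = 0.854) and the upstream activator NF2 (0.27, adjusted p = 0.372) were among those that did not pass. Among those that were lower, WWC3, a relative of KIBRA, had 412 reads in SCC25 +YBX1 and 2 in SCC15 +YBX1 (ratio 243, 66.8 to 2010), and AJUBA, a LIM protein that inhibits LATS, was 9.73-fold lower (-3.28, SE 0.34, adjusted p = 2.12e-05). The scaffold AMOT was at 9032 reads in SCC15 +YBX1 against 6 in SCC25 +YBX1 and 15 in OKF6, a ratio of 1280 over SCC25 (587 to 3480). It is the relative of AMOTL2, which was lower in SCC15. The cadherin DCHS1 had 188 and 1 reads (ratio 160, 28.3 to 6340), and LIMD1 was 4.51-fold higher in SCC15 (2.17, SE 0.42, adjusted p = 0.00181). LATS1 and FAT4 were not analysed here.

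Of 9 measured relatives of the receptor and of the matrix genes, 5 were lower in SCC15 than in SCC25, beside 23.6% of all genes, 2 were higher, beside 20% of all genes, and 2 did not pass (median -1.38). With library medians set equal or under quantile normalization 4 were lower and 2 higher. Where AXL was lower in SCC15, the related receptor MERTK was higher, with 171 reads in SCC15 +YBX1 and 17 in SCC25 +YBX1 (ratio 8.54, 5.18 to 15.0) and 1 in OKF6, and TYRO3 gave -0.43 (adjusted p = 0.298). Of the ligands of these receptors, GAS6 was 2.60-fold lower in SCC15 (-1.38, SE 0.31, adjusted p = 0.00415) and PROS1 was 3.75-fold higher (1.91, SE 0.63, adjusted p = 0.0306). CCN3 and CCN6, of the family of CCN1 and CCN2, had 31 and 57 reads in SCC25 +YBX1 and 2 each in SCC15 +YBX1. THBS2 stood apart from THBS1: it had 2572 reads in OKF6, 6 in SCC25 +YBX1 and 0 in SCC15 +YBX1. CD47, a thrombospondin receptor, was 3.95-fold lower in SCC15 (-1.98, SE 0.26, adjusted p = 0.000114). THBS4, CD36, CCN4 and CCN5 were not analysed here.

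**Figure D3:**
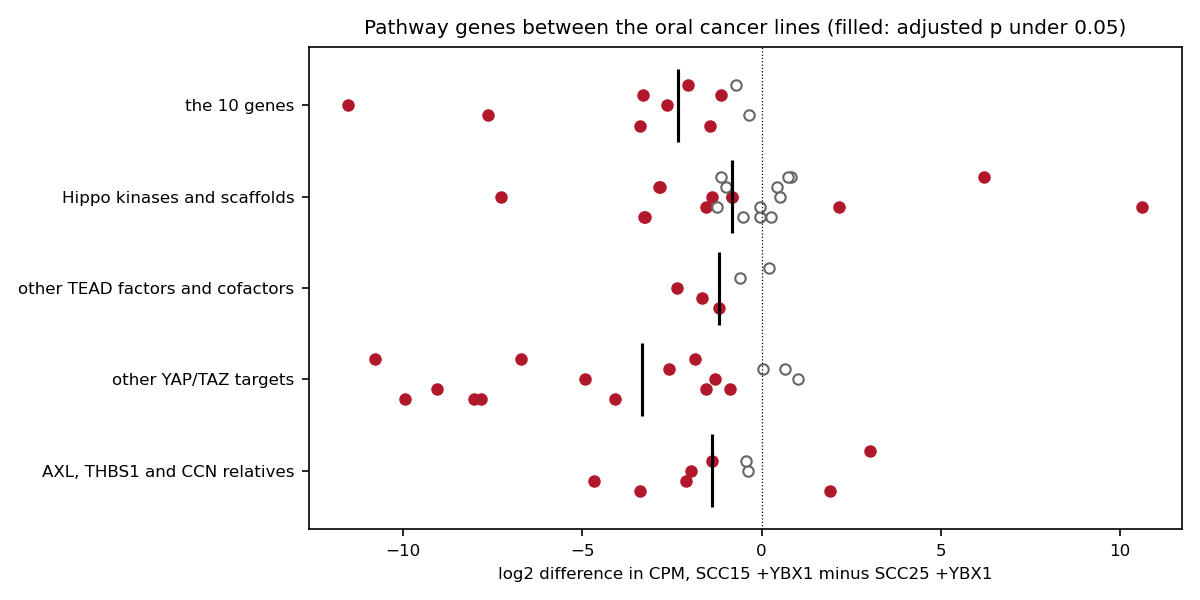
Log2 difference in CPM between SCC15 +YBX1 and SCC25 +YBX1 for each measured gene of the 5 lists, spread vertically for legibility. Black bars are list medians and filled points have an adjusted p under 0.05; the other YAP/TAZ targets have a median of -3.33, and the points on the far right are AMOT and DCHS1.

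The second question is what YBX1 knockdown does to these genes. YBX1 itself, an RNA- and DNA-binding protein and the edited gene, was lower in every -YBX1 library than in any +YBX1 library of its line. In SCC25 it went from 6.74, 6.31 and 6.62 log2 CPM in +YBX1 to 5.26, 4.70 and 3.65 in -YBX1 (log2 change -2.01, SE 0.35), and in SCC15 from 5.11, 5.56 and 6.00 to 3.36, 3.71 and 3.13 (-2.15, SE 0.35). Over both lines together the change was -2.08 (SE 0.24, adjusted p = 0.0103), 4.24-fold, and YBX1 was the single gene of 12995 with an adjusted p under 0.05, or 0.0077% of all genes. Within 1 line no gene passed (0% of all genes), YBX1 included (adjusted p = 0.290 in SCC25 and 0.326 in SCC15).

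None of the 10 genes passed in SCC25, in SCC15, over both lines or in the test of the difference between the lines, where again 0% of all genes passed. At an unadjusted p under 0.05 the limma fits gave 0 of the 10 genes in SCC25 (3.09% of all genes), 0 in SCC15 (2.32%), 0 over both lines (2.15%) and 0 for the difference between the lines (2.26%). With the replicate number as a block within each line the counts were 1 in SCC25 (CCN2, 5.54% of all genes), 1 in SCC15 (AXL, 4.25%), 0 over both lines (4.69%) and 1 for the difference (CCN2, 4.13%). The lowest adjusted p of any of these was 0.892. With voom weights on the recovered reads 0 of the 10 had an adjusted p under 0.05. The 2 arms did not overlap for 1 of the 10 genes in SCC25, THBS1, which was lower in -YBX1 (7.31% of all genes), and for 1 in SCC15, TEAD1, which was higher (7.04% of all genes). The intervals bound the changes unequally. In SCC25 the 95% intervals of YAP1, WWTR1 and TEAD1 lay within -0.55 and 0.56 on the log2 scale, whereas those of AXL ran from -1.79 to 1.88 and those of CCN2 from -3.07 to 0.34.

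**Figure D4:**
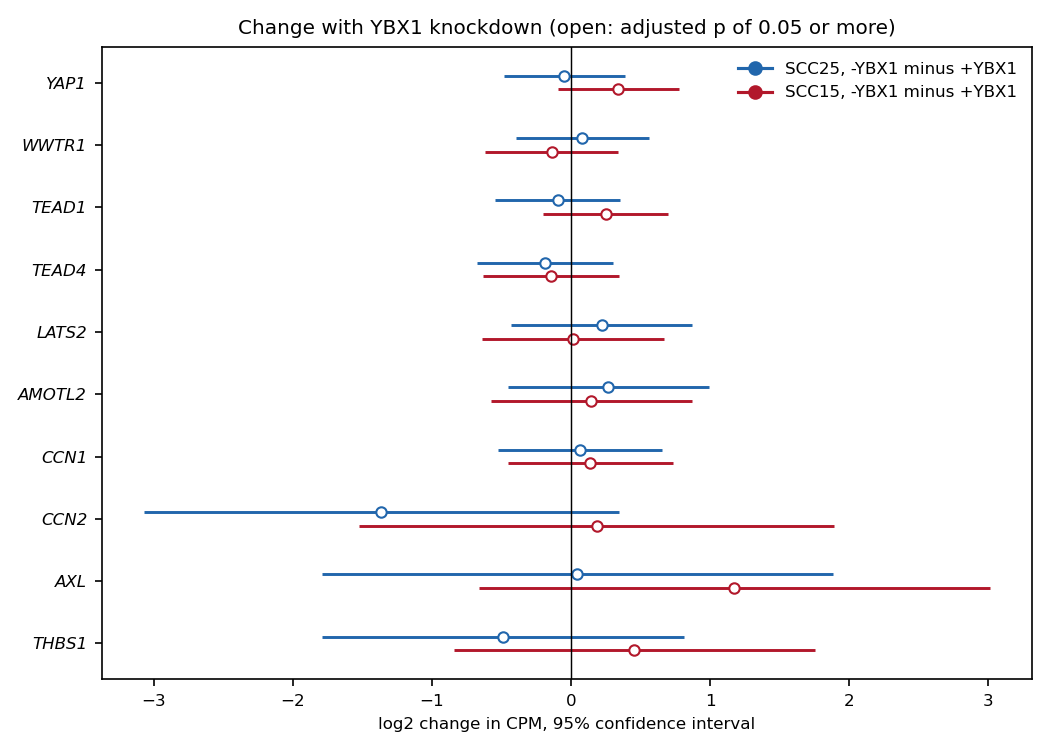
Log2 change in CPM of each gene with YBX1 knockdown, -YBX1 minus +YBX1, in SCC25 and in SCC15, with the 95% confidence interval from limma (3 libraries per arm). All points are open, since no adjusted p was under 0.05; the intervals are widest for CCN2, AXL and THBS1.

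Among the cofactors, YAP1 had 5.55, 5.62 and 5.44 log2 CPM in SCC25 -YBX1, all within the range of the +YBX1 libraries, a change of -0.05 (SE 0.20). In SCC15 -YBX1 it had 4.15, 3.82 and 3.68 (0.34, SE 0.20, unadjusted p = 0.115), with replicates 1 and 2 above every +YBX1 library and replicate 3 among them. WWTR1 changed by 0.08 (SE 0.22) in SCC25 and by -0.14 (SE 0.22) in SCC15, where the 3 same-numbered pairs differed by -0.12, -0.14 and -0.15. In SCC15 its replicate 2 was the lowest library of both arms.

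For the TEAD factors, TEAD1 had 4.54, 4.44 and 4.42 log2 CPM in SCC15 -YBX1, all above the 4.04 to 4.36 of the +YBX1 arm, a change of 0.25 (SE 0.21, unadjusted p = 0.253). In SCC25 it changed by -0.10 (SE 0.21). TEAD4 changed by -0.19 (SE 0.23) in SCC25 and by -0.14 (SE 0.23) in SCC15, with overlapping arms in both.

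Of the feedback genes, AMOTL2 was higher in each SCC25 -YBX1 library than in its same-numbered partner, by 0.22, 0.24 and 0.35, but the arms overlapped (5.65, 5.99 and 6.06 against 5.42, 5.75 and 5.71) and the change of 0.27 (SE 0.34) did not pass. In SCC15 -YBX1 its libraries drew together, at 2.45, 2.34 and 2.37, where the +YBX1 libraries ran from 1.48 to 3.15. LATS2 changed by 0.22 (SE 0.30) in SCC25 and 0.01 (SE 0.30) in SCC15. CCN1 changed by 0.07 (SE 0.28) in SCC25 and 0.14 (SE 0.28) in SCC15.

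THBS1 went from 9.49, 9.55 and 9.58 log2 CPM in SCC25 +YBX1 to 9.17, 8.83 and 9.15 in -YBX1, a change of -0.49. The 3 -YBX1 libraries were all below the 3 +YBX1 libraries. The fit over both lines gave it an SE of 0.60 (unadjusted p = 0.433), sharing 1 spread with the SCC15 libraries, where THBS1 had 0 to 5 reads. In the fit of the 6 SCC25 libraries alone the SE was 0.14 and the unadjusted p 0.0113, with an adjusted p of 0.999 over all genes. SCC25 -YBX1 replicate 2, the lowest for THBS1, was also the library with the lowest summed mesenchymal markers of SCC25 (8.67, others 9.47 to 10.26) and the highest share of reads in its 10 most abundant genes (16.2%, against 8.43% to 14.5% elsewhere). Their part in its THBS1 level was not tested, and its partners at 9.17 and 9.15 lay below the +YBX1 arm as well.

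AXL in SCC25 split by replicate number and not by arm. It had 4.49, 6.18 and 6.24 log2 CPM in +YBX1 and 4.47, 6.29 and 6.29 in -YBX1, so that replicate 1 lay below the others in both arms. Between same-numbered libraries the differences were -0.02, 0.11 and 0.05, and the change was 0.05 with an SE of 0.85. The SD within an arm was 0.99 in +YBX1, larger than that of 99.5% of the genes of like level, and 1.05 in -YBX1, larger than that of 99.1%. In SCC15 AXL had 4, 0 and 1 reads in +YBX1 and 10, 3 and 1 in -YBX1. The log2 change there was 1.17, with an unadjusted p of 0.0357 and an adjusted p of 0.996 under the block within each line.

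CCN2 in SCC25 varied most. It had 2.14, 3.16 and 6.09 log2 CPM in +YBX1 (23, 45 and 326 reads) and 1.62, 2.19 and 3.49 in -YBX1 (15, 23 and 58 reads). The arms overlapped, but each -YBX1 library lay below its same-numbered partner, by 0.52, 0.98 and 2.59, and the order of the replicates was the same in both arms. The change was -1.36 (SE 0.79, unadjusted p = 0.108). Without SCC25 +YBX1 replicate 3 it was -0.22. A block for the replicate number within each line gave an unadjusted p of 0.0164 and an adjusted p of 0.892, and the difference of this change from that in SCC15 was -1.55 (unadjusted p = 0.0435, adjusted p = 0.979). The SD of the +YBX1 arm, 2.05, was larger than that of 99.95% of genes of like level. In that arm the summed keratinocyte markers ran the other way, at 14.16, 13.77 and 13.14, and VIM was highest in replicate 3, at 10.12 against 9.50 and 9.41. In the -YBX1 arm replicate 2 went against this order, with keratinocyte sums of 13.71, 14.42 and 12.80 and VIM at 9.84, 8.54 and 10.08. Their part in the CCN2 level was not tested. In SCC15 CCN2 had 11, 5 and 9 reads in +YBX1 and 11, 11 and 9 in -YBX1, a change of 0.19 (SE 0.79).

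**Figure D5:**
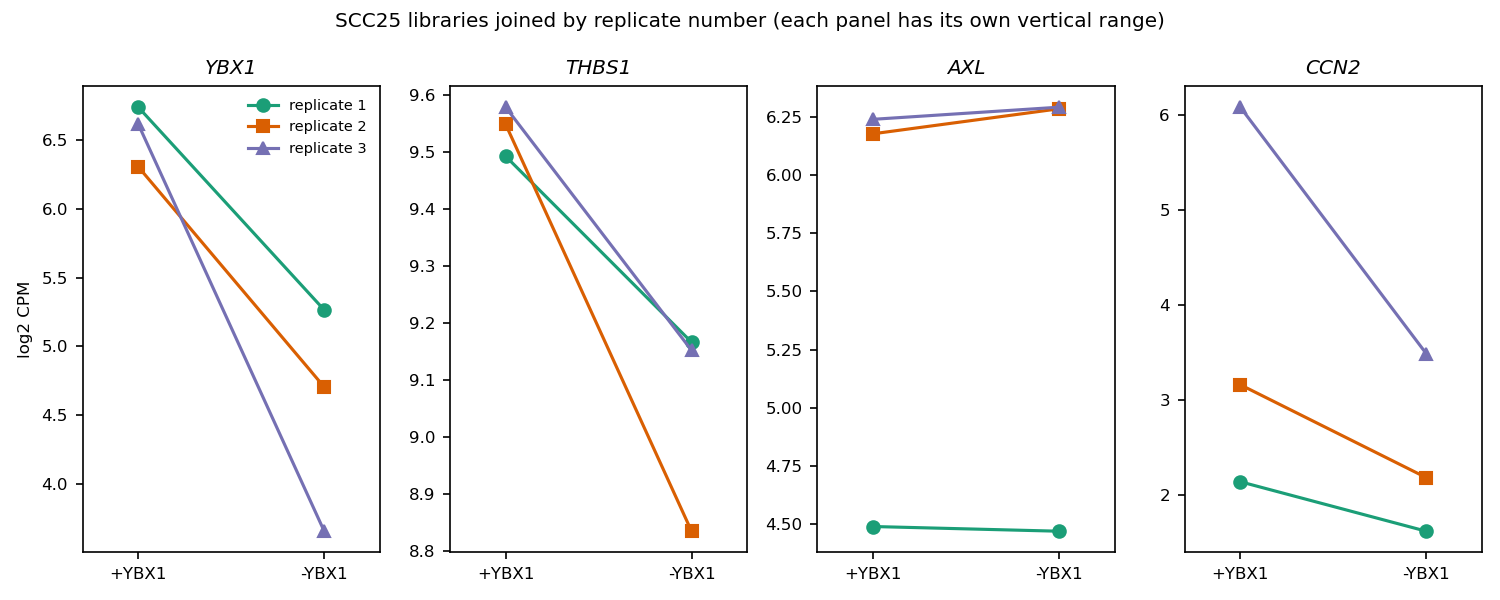
Log2 CPM of YBX1, THBS1, AXL and CCN2 in the 6 SCC25 libraries, with lines joining the +YBX1 and -YBX1 libraries of the same replicate number. All 3 lines slope down for YBX1, THBS1 and CCN2, while those of AXL are nearly level with replicate 1 at 4.49 and 4.47 and the others at 6.18 or more.

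The lists of the wider pathway behaved likewise. None of the 16 other targets, 23 Hippo kinases and scaffolds, 5 TEAD factors and cofactors or 9 relatives had an adjusted p under 0.05 in either line, and list medians lay between -0.23 and 0.26 on the log2 scale (all genes -0.02 in SCC25 and -0.01 in SCC15). At an unadjusted p under 0.05 in limma stood 1 of the 5 TEAD factors and cofactors in SCC25, beside 3.09% of all genes. It was VGLL1 (-1.89, from 8 reads in +YBX1 to 2). In SCC15 there were 2 of the 16 other targets, beside 2.32% of all genes. They were MYOF (1.48, from 2 reads to 10) and F3 (-0.84, from 23 reads to 17). No other gene of these lists stood there in either line.

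Across all 15 libraries the genes closest to each of the 10 were found by the root mean square distance of centred log2 CPM among 6458 genes above the median level. The likeness follows the line above all, since the 15 libraries are 5 groups. The cofactor YAP1 was closest to TSPAN14 (0.244) and LPP (0.249), and WWTR1 to RAB11FIP5 (0.182) and PAFAH1B1 (0.223). TEAD1 was closest to DLG1 (0.223) and NCOA6 (0.233), and TEAD4 to CEP41 and RPL35A (both 0.248). LATS2 was closest to NCKAP1 (0.209) and DTD1 (0.244), AMOTL2 to SOWAHC (0.334) and EPAS1 (0.366), and CCN1 to CD59 (0.318). THBS1 was closest to SFN (0.482), which encodes an epithelial regulatory protein, and LAMB3 (0.484), a laminin chain. AXL lay at 0.795 from DKK3 and 0.958 from PHLDA1. Values were centred but not scaled, so the distance grows with the spread of a gene over the 15 libraries. That SD was 3.47 for AXL and 5.34 for THBS1, but 0.499 for TEAD4 and 0.602 for WWTR1. The distances therefore do not rank the 10 genes by closeness of match. The nearest genes of CCN2 (SD 1.71), PAAF1 and TRIM8, lay at 1.05 and 1.07.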

How the data were processed

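RNA of 15 libraries in 5 groups of 3 was analysed. QuantSeq 3′ FWD reads were trimmed (Cutadapt) and mapped to hg38 (HISAT2), and featureCounts gave reads per gene, which the authors filtered and normalised in limma. The deposited unit is log2 CPM, with 0.5 added to each count before scaling by the normalised library size. Taking the lowest value of a library as 0 reads gave whole reads for 100% of the values (tolerance 0.01 read). Depth was 4075290 to 6118501 counted reads, and ratios of reads carry exact 95% intervals that cover counting error only.

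From these values limma 3.58.1 (R 4.3.3) was fitted to every group of a table at once, using lmFit and then eBayes with trend switched on. Tests were two-sided, and p was adjusted by Benjamini-Hochberg over 12995 genes, with a threshold of 0.05. The script was tested on simulated reads. Replicate numbers were taken as pairs within a line. Over 6497 genes, same-numbered deviations of -YBX1 and +YBX1 correlated at 0.14, 0.47 and 0.42 in SCC25. For SCC15 the values were 0.50, 0.31 and 0.12. SCC25 -YBX1 replicate 1 correlated better with +YBX1 replicate 3 (0.24). SCC15 -YBX1 replicate 3 correlated better with +YBX1 replicate 2 (0.35). For these libraries the pairing is not shown. Each other -YBX1 library correlated best with its own number. The replicate blocks and the same-numbered differences rest on this pairing. Python 3.11.15, scipy 1.17.1 and matplotlib 3.10.9 served for ratios and figures. Gene positions come from GENCODE on hg38.

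The 10 genes, the lists and the tests were chosen with earlier results of these data known. Named beside the 10 genes were YBX1, the 4 genes of each list with the largest called difference between SCC15 and SCC25, genes called in a knockdown comparison, and the 2 nearest genes of each of the 10. Of the genes so named, 2 are not reported here. Other pathway and marker genes, and those under an unadjusted p, were chosen after their values were seen. As alternatives, the fit was repeated with the replicate number as a block, on the compared groups alone, on all 15 libraries, after quantile normalization or with equal medians, with the trend switched off, with voom weights on recovered reads, above the first quartile of expression, and without each library. The block by line was added after the data were seen.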

Additional observations from a re-analysis of the deposited data

How the results depend on the processing

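Among the 10 genes no alternative changed the count called in a knockdown comparison from 0, the paired fits with a replicate block (0 called in each of the 4) and with a block by line (0) included. With the replicate block the line comparisons kept 8, 9 and 3 called genes. The numbers do not pair libraries across lines: SCC15 and SCC25 +YBX1 libraries of the same number correlated at 0.02, -0.05 and -0.20. Setting library medians equal moved the median log2 difference of all genes between SCC15 and SCC25 from -0.01 to 0.14, and quantile normalization moved it to 0.17, but under either 8 of the 10 genes were called. Genes above the first quartile left CCN2 out of the line comparisons. Over both lines, the single gene called (YBX1) became 0 with no variance trend or without any one of SCC15 +YBX1 replicates 2 and 3, SCC15 -YBX1 replicates 1 and 3 and SCC25 +YBX1 replicates 1 and 3, and 2 genes were called without SCC25 -YBX1 replicate 2. With 1 library left out, the genes called for SCC25 against OKF6 numbered 0 to 5.

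Leaving out 1 library turned the sign of some uncalled differences of the 10 genes. For SCC15 against OKF6 the log2 values then ran from -1.23 to 0.46 for CCN2. For SCC25 against OKF6 the log2 values then ran from -0.17 to 0.017 for AMOTL2, from -0.68 to 0.045 for LATS2 and from -0.43 to 0.075 for CCN1. For the knockdown in SCC25 the log2 values then ran from -0.16 to 0.013 for YAP1, from -0.077 to 0.28 for WWTR1, from -0.22 to 0.12 for TEAD1, from -0.33 to 0.0079 for TEAD4, from -0.53 to 0.65 for AXL and from -0.19 to 0.31 for CCN1. For the knockdown in SCC15 the log2 values then ran from -0.30 to 0.031 for WWTR1, from -0.33 to 1.19 for THBS1, from -0.24 to 0.60 for AMOTL2, from -0.28 to 0.24 for LATS2, from -0.016 to 0.33 for CCN1 and from -0.12 to 0.47 for CCN2. For the knockdown over both lines the log2 values then ran from -0.11 to 0.072 for WWTR1, from -0.41 to 0.35 for THBS1, from -0.031 to 0.23 for LATS2 and from -0.026 to 0.23 for CCN1. For the difference between the knockdowns the log2 values then ran from -0.19 to 0.15 for TEAD4, from -0.33 to 0.51 for AMOTL2, from -0.021 to 0.50 for LATS2 and from -0.33 to 0.17 for CCN1. Library medians set equal turned CCN2 in SCC15 against OKF6 to 0.032 and LATS2 in the SCC15 knockdown to -0.012, and quantile normalization turned LATS2 there to -0.041 and THBS1 over both lines to 0.039; the cause was not tested. Every called value kept its sign under every alternative that could be fitted. Depth limits THBS1, AXL and CCN2 in SCC15, where 0 to 11 reads per library stand behind each value.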
